A study of Mus musculus with 9 samples.

Results

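Carbonic anhydrases and aquaporins, the enzymes and channels that handle carbon dioxide and water, were described in the right ventricle of mice with monocrotaline-induced pulmonary hypertension. The genes were Car4, Aqp1, Car3, Car2, Aqp4 and Car14, of which Car4 and Aqp1 had been chosen by the fall of their log2 values with monocrotaline in these same arrays. A gene was read from the probe set annotated to it alone, and each of the genes measured had 1 such probe set. On that rule 5 of the 6 genes were measured, among 18820 genes in all. Car14, a membrane-bound carbonic anhydrase, had only 2 rows, each annotated to Aph1a as well, and the RefSeq annotation of GRCm38.p6 places both genes on chromosome 3 with overlapping spans. No value is given for Car14.

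Total RNA came from the right ventricle of 9 female C57BL/6 mice, and each mouse had an Affymetrix array of its own (mouse gene 1.1 ST). MCT+NI mice (615, 617 and 619) received monocrotaline and a nutritional intervention, a diet of equal energy enriched in fish oil, oligosaccharides, leucine and other protein. MCT mice (640, 641 and 644) received monocrotaline and the standard AIN-93M diet, and sham mice (620, 624 and 625) received saline and the same standard diet. Monocrotaline, a plant alkaloid that injures the vessels of the lung, was injected under the skin at 600 mg/kg every week for 8 weeks, starting at 10 weeks of age. The diets started 2 weeks before the injections according to the labels, and 1 week before according to the methods. The arrayed mice were a subset that the methods call matched for disease severity, and there was no group on the intervention diet without monocrotaline.

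Carbonic anhydrases interconvert carbon dioxide and water with bicarbonate and a proton. Car4 is anchored to the outer face of the membrane and is known from the luminal surface of capillary endothelium, including that of the heart and lung. Car2 is a fast cytosolic enzyme of many cell types, and Car3 is a slow cytosolic enzyme abundant in slow skeletal muscle and adipocytes. Aqp1 is a water channel of capillary endothelium and red blood cells, and Aqp4 is the water channel of astrocyte endfeet and is also found at the sarcolemma of skeletal and cardiac muscle. In whole tissue, fewer cells of a type and less RNA per cell cannot be told apart.

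The upstream sequences of Car4 and Aqp1, the pair with the lower levels in MCT mice, are shown because both genes are known from endothelium, where promoters often carry the GGAA core bound by ETS factors. Each run is the 250 bases before the RefSeq start in GRCm38.p6, read 5′ to 3′ on the strand of the gene, with every GGAA or TTCC in capitals.
Car4, chr11:84957504-84957753, plus strand: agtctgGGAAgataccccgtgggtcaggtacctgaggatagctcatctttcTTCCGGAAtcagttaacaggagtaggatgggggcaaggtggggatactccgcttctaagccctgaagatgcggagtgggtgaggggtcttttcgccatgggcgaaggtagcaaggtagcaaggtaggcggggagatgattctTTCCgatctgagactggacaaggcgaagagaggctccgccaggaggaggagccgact
Aqp1, chr6:55336049-55336298, plus strand: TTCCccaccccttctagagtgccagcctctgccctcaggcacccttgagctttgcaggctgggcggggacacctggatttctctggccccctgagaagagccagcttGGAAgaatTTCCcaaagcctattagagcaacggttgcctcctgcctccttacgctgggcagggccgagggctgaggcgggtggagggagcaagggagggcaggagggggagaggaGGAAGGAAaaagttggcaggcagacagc
The core occurred 4 times upstream of Car4 and 5 times upstream of Aqp1, and at least once in 93.4% of 32851 promoter windows of the same length, both strands counted. Searched likewise on both strands, GATA, the core of the factors of that name, occurred 3 times for Car4 and 0 times for Aqp1, and in 53.6% of windows. The core CACCC of Krüppel-like factors occurred 1 time for Car4 and 3 times for Aqp1, and in 52% of windows. The core ACGTG of hypoxia-inducible factors was in neither window and in 16.6% of all windows, and the SOX core ACAAT was in neither and in 27.7%. The GC content was 56.4% for Car4 and 62.0% for Aqp1, and the median of all windows was 52.4%. A match of these letters is not evidence of binding.

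Car4 had log2 intensities of 5.67, 5.28 and 5.30 in MCT+NI mice and of 5.63, 5.27 and 5.86 in MCT mice, against 7.88, 7.31 and 7.63 in sham mice. Every mouse given monocrotaline lay below every sham mouse, and the highest MCT mouse was 1.45 log2 units under the lowest sham mouse. The means were 5.42 ± 0.22 in MCT+NI mice, 5.58 ± 0.30 in MCT mice and 7.61 ± 0.28 in sham mice (SD, n = 3 each). The difference of MCT from sham was -2.02 on the log2 scale, which is 4.06-fold lower and the fall of rank 14 among the 18820 genes.

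Aqp1 had log2 intensities of 7.98, 7.43 and 7.55 in MCT+NI mice and of 7.80, 7.17 and 7.98 in MCT mice, against 9.44, 9.51 and 8.77 in sham mice. Its groups with monocrotaline again lay wholly below sham, with a gap of 0.79 log2 units between the highest MCT and the lowest sham mouse. The means were 7.65 ± 0.29 in MCT+NI mice, 7.65 ± 0.43 in MCT mice and 9.24 ± 0.41 in sham mice (SD, n = 3 each). The difference of MCT from sham was -1.59, which is 3.01-fold lower and the fall of rank 21. Since both genes were chosen for this contrast, their differences from sham are a description with no test. Of all genes, 10.2% lay wholly lower in MCT than in sham mice without overlap.

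**Figure D1:**
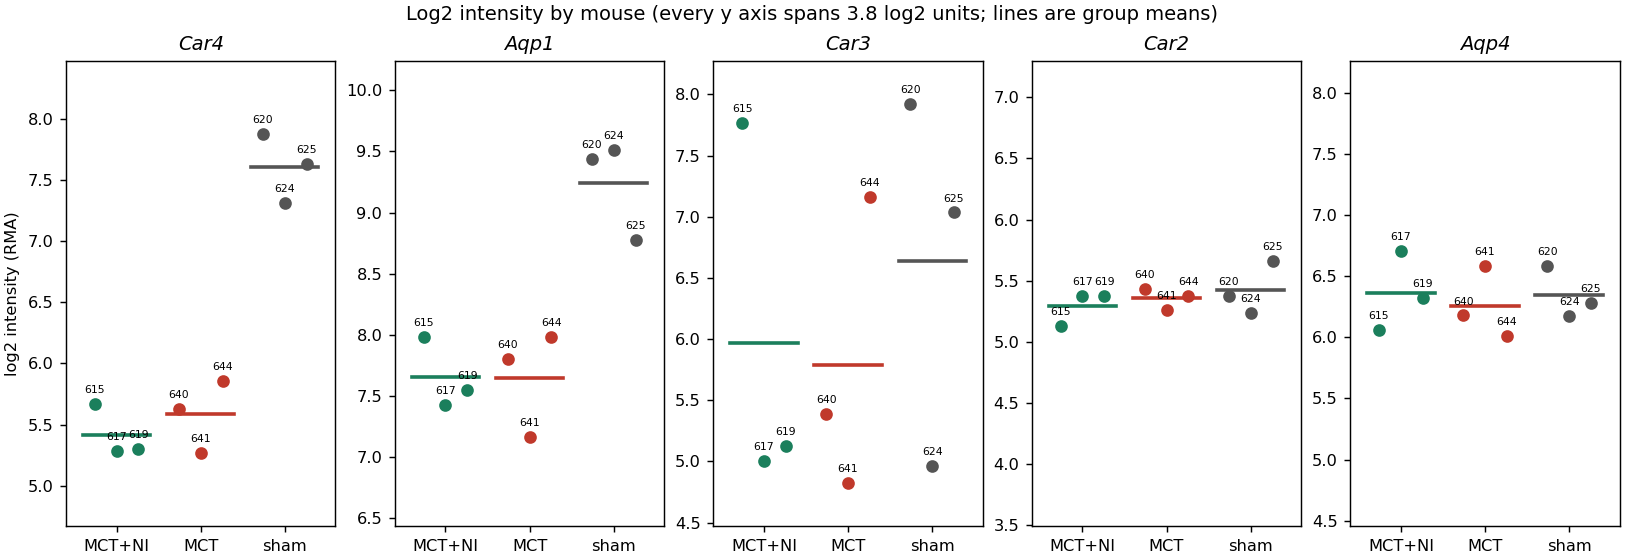
Log2 intensity (RMA) of Car4, Aqp1, Car3, Car2 and Aqp4 on the y axis, with MCT+NI, MCT and sham mice from left to right in each panel. Each dot is 1 mouse with its number, lines are group means, and all y axes span the same number of log2 units; Car4 and Aqp1 lie below sham in all 6 mice given monocrotaline, while the groups of the other 3 genes overlap.

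The other 3 genes were not chosen for a fall, and by limma 0 of them passed an adjusted p of 0.05 between MCT and sham mice, and 0 an unadjusted p of 0.05. Of all genes 6.26% passed the adjusted threshold in that comparison, and 19.7% the unadjusted one. Car2 had 5.13, 5.38 and 5.38 in MCT+NI mice, 5.43, 5.26 and 5.38 in MCT mice, and 5.38, 5.24 and 5.66 in sham mice. The 3 groups overlapped, and 4 of the 9 mice shared exactly 1 value. Values shared by at least 2 mice occurred in 12042 of the 18820 genes. The Car2 difference of MCT from sham was -0.07 (95% confidence interval -0.34 to 0.20, limma adjusted p = 0.796).

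Aqp4 had 6.06, 6.70 and 6.32 in MCT+NI mice, 6.18, 6.59 and 6.01 in MCT mice, and 6.59, 6.17 and 6.28 in sham mice. These values overlapped as well. The Aqp4 difference of MCT from sham was -0.09 (95% confidence interval -0.53 to 0.35, limma adjusted p = 0.855). In each group the mouse with the highest mean of atrial markers (MCT+NI 615, MCT 644 and sham 624) had the lowest Aqp4, and the part of atrial tissue in the Aqp4 level was not tested. With the atrial mean as a covariate, the Aqp4 difference of MCT from sham was -0.38 (limma adjusted p = 0.446) and that of MCT+NI from sham -0.30 (adjusted p = 0.608).

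Car3 had 7.77, 5.0 and 5.13 in MCT+NI mice, 5.39, 4.82 and 7.16 in MCT mice, and 7.92, 4.96 and 7.04 in sham mice. Each group held both low and high mice, and the standard deviations of 1.56, 1.22 and 1.52 (MCT+NI, MCT and sham, n = 3 each) were several times those of the other genes. The means were 5.97 in MCT+NI mice, 5.79 in MCT mice and 6.64 in sham mice. The Car3 difference of MCT from sham was -0.85, with a 95% confidence interval of -3.04 to 1.35 (limma adjusted p = 0.69), so that large differences in either direction were not resolved. It was -0.21 without sham mouse 620, -0.36 without MCT mouse 641, -1.53 without MCT mouse 644 and -1.69 without sham mouse 624. With the atrial mean as a covariate it was 0.64 (adjusted p = 0.846). The sign also turned without sham mouse 625 for Car2 (0.047), and without sham mouse 620 (0.033) or MCT mouse 644 (0.037) for Aqp4.

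Car3 is abundant in adipocytes, and adipocyte transcripts varied beside it. Retn, the adipocyte hormone resistin, had 6.34, 4.27 and 4.50 in MCT+NI mice, 4.37, 4.08 and 5.92 in MCT mice, and 6.08, 3.88 and 5.64 in sham mice. Cidec, a protein of lipid droplets, had 4.64, 3.84 and 3.83 in MCT+NI mice, 3.92, 4.07 and 4.53 in MCT mice, and 4.98, 3.49 and 4.66 in sham mice. In every group the mice with the highest Car3 also had the highest Retn. These markers were picked after their values had been seen. Over the whole list of 13 measured adipocyte markers, the mean per mouse ran from 5.55 to 5.93 in MCT+NI mice, from 5.49 to 5.88 in MCT mice and from 5.44 to 6.20 in sham mice. Of these markers 0 passed the adjusted threshold and 2 the unadjusted one between MCT and sham mice, with a median difference of -0.23. In that comparison 6.26% of all genes passed the adjusted threshold and 19.7% the unadjusted one. The 16 skeletal muscle markers had means of 4.65 to 4.81 in MCT+NI mice, 4.70 to 4.79 in MCT mice and 4.63 to 4.84 in sham mice, and 0 of them passed the adjusted threshold and 1 the unadjusted one. The part of either tissue in the spread of Car3 was not tested.

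**Figure D2:**
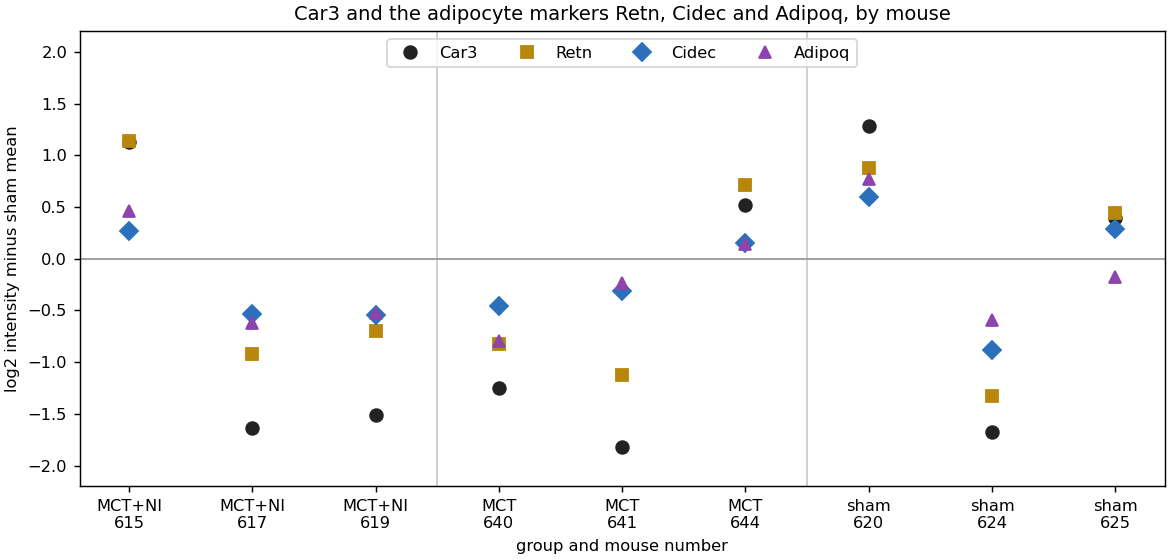
Log2 intensity minus the sham mean on the y axis for Car3 and the adipocyte markers Retn, Cidec and Adipoq, with 1 column per mouse (MCT+NI, MCT and sham from left to right). Car3 and Retn lie above the sham mean in MCT+NI mouse 615, MCT mouse 644 and sham mice 620 and 625, and below it in the other 5 mice.

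Whether the diet altered these levels in mice given monocrotaline was asked by setting MCT+NI against MCT mice. For Car4 the difference was -0.17 (standard error 0.19, 95% confidence interval -0.59 to 0.26, limma adjusted p = 1). Without MCT mouse 641 it was -0.32 and without MCT mouse 644 -0.028. For Aqp1 it was 0.0021 (95% confidence interval -0.58 to 0.59, limma adjusted p = 1). The same MCT arrays had entered the choice of these genes. For Car3 the difference was 0.17 (95% confidence interval -2.02 to 2.37), for Car2 -0.06 (-0.33 to 0.21) and for Aqp4 0.10 (-0.34 to 0.54), each with a limma adjusted p of 1. The sign turned when single mice were left out for Aqp1 (MCT 641 or MCT+NI 615), Car2 (MCT+NI 615), Aqp4 (MCT 644 or MCT+NI 617) and Car3 (MCT 640 or 641 or MCT+NI 615). The groups overlapped in 5 of 5 genes, while 6.08% of all genes lay apart. The adjusted threshold was passed by 0% of all genes in this comparison and an unadjusted p under 0.05 by 2.9%.

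**Figure D3:**
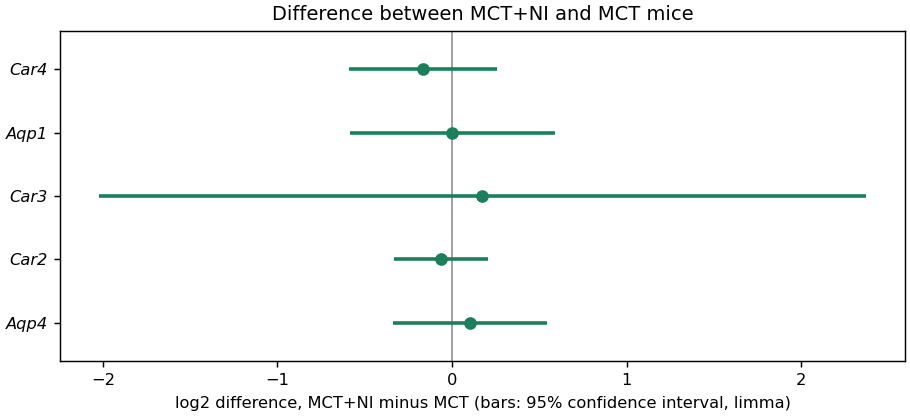
Log2 difference of MCT+NI minus MCT on the x axis for the 5 measured genes, with 95% confidence intervals from limma as bars. Each interval includes 0, and that of Car3, from -2.02 to 2.37, is the widest.

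Against sham mice, MCT+NI mice had a Car4 difference of -2.19 and an Aqp1 difference of -1.59, and in the same comparison 10.3% of all genes lay wholly lower. Both comparisons with sham use the same 3 sham arrays, so they are not independent. Of the 3 genes not chosen for a fall, 0 were called in limma and 0 passed an unadjusted p of 0.05. Of all 18820 genes, 6.26% were called and 3674 passed that unadjusted threshold. Car3 differed by -0.67 (95% confidence interval -2.87 to 1.52, limma adjusted p = 0.754; from -1.57 without MCT+NI mouse 615 to -0.03 without sham mouse 620), Car2 by -0.13 (-0.40 to 0.14, adjusted p = 0.601) and Aqp4 by 0.02 (-0.42 to 0.46, adjusted p = 0.978).

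Among the other carbonic anhydrases, Car5b, the mitochondrial enzyme that supplies bicarbonate for biosynthesis, had the opposite direction. It had 4.77, 4.58 and 4.84 in MCT+NI mice and 4.25, 4.49 and 4.63 in MCT mice, against 4.02, 3.64 and 4.0 in sham mice. These are dim values, as the Car5b mean of 4.36 lay below the median gene at 5.42 and 38.0% of genes were dimmer. All 6 mice given monocrotaline lay above the sham mice, as did 10.7% of all genes for MCT+NI and 11.7% for MCT. MCT+NI minus sham was 0.84 for Car5b (standard error 0.14, limma adjusted p = 0.00729, 1.79-fold), in a comparison in which 4.52% of all genes were called higher and 1.75% lower. MCT minus sham was 0.57 (1.49-fold, limma adjusted p = 0.0429), with 4.65% of all genes called higher, and this call was lost in 12 of 18 alternatives (adjusted p = 0.0535 to 0.179), among them the fits without any 1 sham mouse, without MCT mouse 641 or 644 and without MCT+NI mouse 615 or 619. The call of MCT+NI against sham was kept in 18 of 18. The difference of MCT+NI from MCT was 0.27 (95% confidence interval -0.04 to 0.58, limma adjusted p = 1).

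Of the 11 carbonic anhydrases measured beside Car4, Car3 and Car2, 1 was called higher and 0 lower between MCT and sham mice, against 4.65% and 1.61% of all genes. Their median difference was -0.09 and that of all genes -0.02. Car11, a relative without catalytic activity, differed by -0.28 (limma adjusted p = 0.244), and Car9, the membrane enzyme induced by hypoxia, by -0.22 (adjusted p = 0.359). Of the 10 aquaporins measured beside Aqp1 and Aqp4, 0 were called and 1 passed an unadjusted p under 0.05, against 19.7% of all genes, with a median difference of -0.09. That gene was Aqp7, a channel for water and glycerol found in adipocytes and capillary endothelium, which differed by -0.46 (limma adjusted p = 0.0988).

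**Figure D4:**
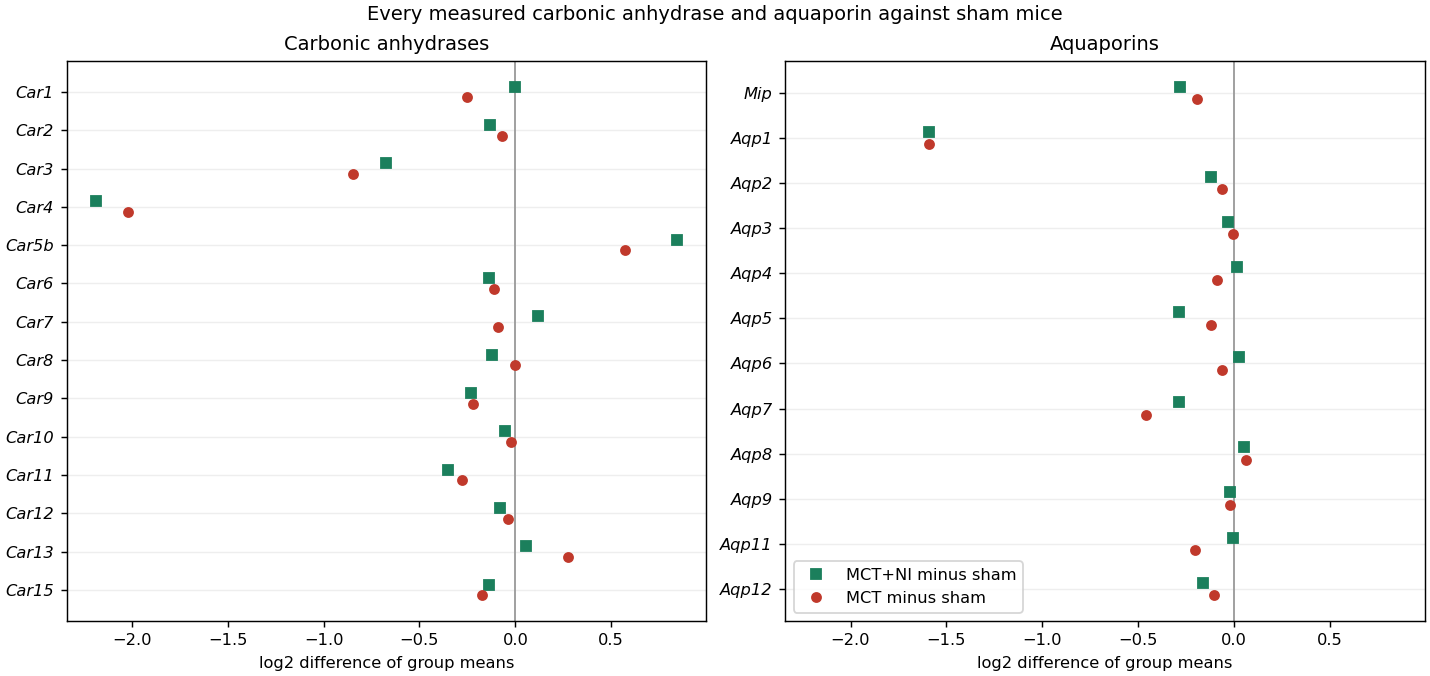
Log2 difference of group means on the x axis for 14 measured carbonic anhydrases and 12 measured aquaporins, with squares for MCT+NI minus sham and dots for MCT minus sham. Car4 at -2.19 and -2.02 and Aqp1 at -1.59 in both comparisons lie farthest left, and Car5b at 0.84 and 0.57 farthest right.

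Proteins that work with these families were read from lists. Of 19 measured transporters of bicarbonate, protons and lactate, 0 were called higher and 1 lower in MCT than in sham mice, against 4.65% and 1.61% of all genes, with a median difference of -0.01. The gene was Slc16a7, a carrier of lactate and pyruvate, with 5.91, 6.30 and 6.24 in MCT+NI mice and 6.03, 6.05 and 6.28 in MCT mice, against 6.59, 6.75 and 6.84 in sham mice. The Slc16a7 difference of MCT from sham was -0.61 (standard error 0.12, limma adjusted p = 0.0171), and the call was lost in 5 of 19 alternatives, the fits without sham mouse 624 or 625, without MCT mouse 640 or 641, and with the atrial markers as a covariate. Its difference of MCT+NI from sham was -0.58 (adjusted p = 0.0229).

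Aqp4 is held at the membrane by the dystrophin complex through syntrophin. Of 11 measured genes of that complex 2 were called higher and 1 lower in MCT than in sham mice (4.65% and 1.61% of all genes), with a median difference of -0.03. Sntb2, a beta-syntrophin, had 7.38, 7.37 and 7.40 in MCT+NI mice and 7.44, 7.46 and 7.39 in MCT mice, against 6.92, 6.73 and 6.71 in sham mice. The Sntb2 difference of MCT from sham was 0.64 (standard error 0.06, limma adjusted p = 0.000495) and the call was kept in 19 of 19 alternatives. Sntb1, another beta-syntrophin, rose by 0.46 (adjusted p = 0.0372), and Dmd, dystrophin, fell by 0.25 (adjusted p = 0.0249). The call of Sntb1 was lost in 13 of 19 alternatives (adjusted p up to 0.25), among them those without sham mouse 624 or 625, MCT mouse 640 or 641 and MCT+NI mouse 615 or 617. That of Dmd was lost in 9 (adjusted p up to 0.125), among them those without any 1 sham mouse and without MCT mouse 640 or 644.

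Because Car4 and Aqp1 are known from capillary endothelium, markers of that cell type were read beside them. Of 16 pan-endothelial markers 7 were called higher and 1 lower in MCT than in sham mice, against 4.65% and 1.61% of all genes, with a median difference of 0.42. Icam2, an adhesion molecule, had 8.06, 8.02 and 8.13 in MCT+NI mice and 8.03, 7.93 and 7.85 in MCT mice, against 6.96, 6.96 and 7.10 in sham mice (MCT minus sham 0.93, limma adjusted p = 0.000103). Robo4, a receptor of endothelium, rose by 1.11 (adjusted p = 0.000638) and Erg, an ETS transcription factor, by 0.78 (adjusted p = 0.00154). The marker called lower was Flt1, a receptor for VEGF, with 8.07, 7.87 and 7.84 in MCT+NI mice and 7.92, 7.86 and 8.08 in MCT mice, against 8.62, 8.69 and 8.67 in sham mice (MCT minus sham -0.71, adjusted p = 0.000822). In MCT+NI against sham mice 10 of these markers were called higher and 2 lower, against 4.52% and 1.75% of all genes. The mean of the list per mouse ran from 8.59 to 8.77 in MCT+NI mice, from 8.60 to 8.70 in MCT mice and from 8.25 to 8.42 in sham mice. The part of endothelial cell number in the levels of Car4 and Aqp1 was not tested. Within MCT+NI, mouse 615 had the highest mean of the list and the highest Car4 and Aqp1, and within MCT, mouse 644 had the lowest mean and the highest Car4 and Aqp1.

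Of 14 markers of capillary endothelium 4 were called higher and 3 lower in MCT than in sham mice (4.65% and 1.61% of all genes), with a median difference of 0.15. Timp4, an inhibitor of matrix metalloproteinases, had 4.43, 4.84 and 4.53 in MCT+NI mice and 4.17, 3.83 and 4.32 in MCT mice, against 7.03, 6.35 and 6.06 in sham mice. The Timp4 difference of MCT from sham was -2.37 (standard error 0.24, limma adjusted p = 0.00063). Rgcc, a regulator of the cell cycle, fell by 0.52 (adjusted p = 0.00574), while Meox2, a transcription factor, rose by 0.79 (adjusted p = 0.019) and Sgk1, a kinase, by 0.56 (adjusted p = 0.0142). Without MCT mouse 640 or 641 both of these calls were lost, and that of Meox2 also without sham mouse 625 (adjusted p up to 0.118 and 0.111). The capillary mean per mouse ran from 8.16 to 8.22 in MCT+NI mice, from 7.97 to 8.11 in MCT mice and from 7.93 to 8.21 in sham mice, and MCT and sham overlapped. Of 12 large-vessel and venous markers 0 were called in that comparison and 4 passed an unadjusted p under 0.05, against 6.26% and 19.7% of all genes. Their median difference was -0.09.

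**Figure D5:**
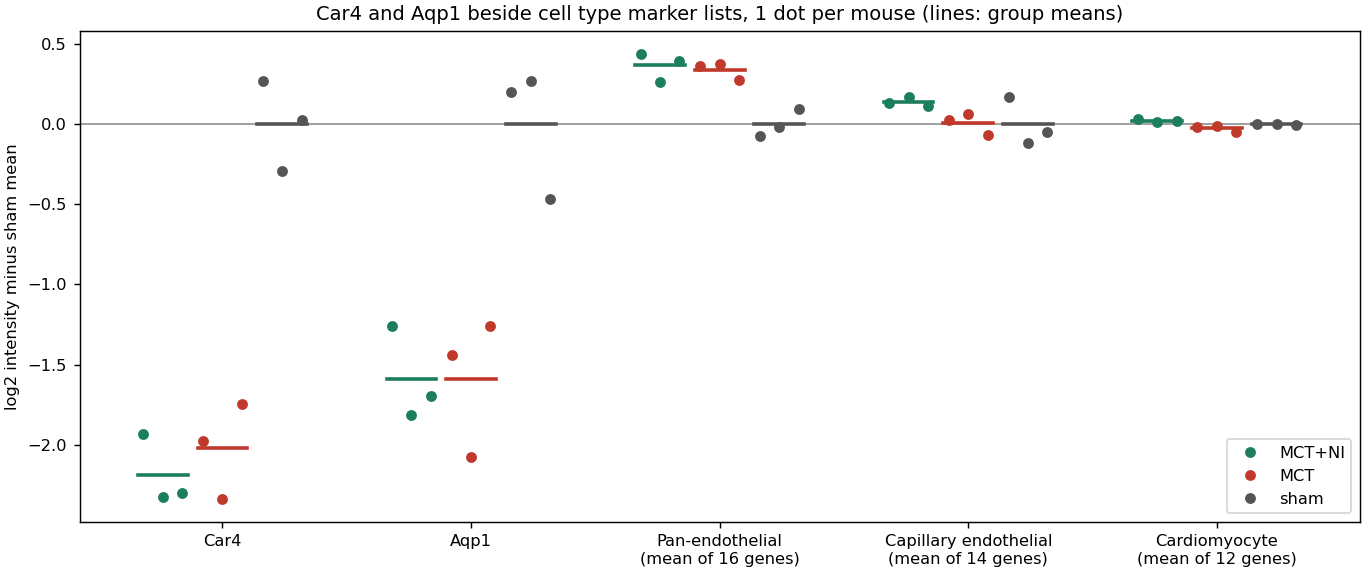
Log2 intensity minus the sham mean on the y axis for Car4, Aqp1 and the means of 16 pan-endothelial, 14 capillary and 12 cardiomyocyte markers, with MCT+NI, MCT and sham mice from left to right; dots are mice and lines are group means. Car4 and Aqp1 lie far below the sham mean in both groups given monocrotaline, the pan-endothelial mean lies above it, and the cardiomyocyte mean stays within 0.05 of it.

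Red blood cells carry Aqp1 and Car2. Only 4 of 14 erythroid markers had a probe set of their own, the globin genes not among them. Of these 4, 0 were called in MCT against sham mice and 0 passed the unadjusted threshold, against 6.26% and 19.7% of all genes. The means of those 4 were 3.86 to 4.11 in MCT+NI mice, 3.66 to 4.2 in MCT mice and 3.68 to 4.01 in sham mice. Alas2, the first enzyme of heme synthesis in red cells, had 5.73, 6.84 and 6.50 in MCT+NI mice, 5.24, 6.58 and 5.45 in MCT mice, and 6.10, 5.80 and 5.42 in sham mice. The part of blood in the levels was not tested.

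Atrial transcripts differed between mice. The mean of 10 atrial markers was 8.64, 6.44 and 5.92 in MCT+NI mice and 5.75, 6.07 and 9.76 in MCT mice, against 9.26, 9.99 and 9.81 in sham mice. The markers had a median difference of -2.00 between MCT and sham mice, with 0 called and 8 at an unadjusted p under 0.05. Of all genes 6.26% were called and 19.7% passed that unadjusted threshold. Sham mouse 624 had the highest atrial mean of its group and the highest Aqp1 (9.51), but the lowest Car4 (7.31). MCT mouse 644 and MCT+NI mouse 615, whose atrial means were the highest of their groups, also had the highest Car4 (5.86 in MCT 644 and 5.67 in MCT+NI 615) and the highest Aqp1 (7.98 in each) of their groups. These values were below those of every sham mouse. Without these 2 mice, the difference of MCT from sham was -2.16 for Car4 and -1.76 for Aqp1. With the atrial mean as a covariate it was -1.78 for Car4 and -1.26 for Aqp1. The part of atrial tissue in these differences was not tested.

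The lists of the other cells were read for the same comparison, in which 4.65% of all genes were called higher and 1.61% lower. Of 12 cardiomyocyte markers 0 were called higher and 1 lower, Ryr2, the calcium release channel, which fell by 0.17 (limma adjusted p = 0.0234, but up to 0.176 in the 8 of 19 alternatives that lost the call, those without sham mouse 624 or 625 and MCT mouse 640 or 641 among them), and the list median was -0.03. Smooth muscle and pericyte markers had 8 of 12 called higher, fibroblast markers 5 of 12 and macrophage markers 3 of 12, with 0 called lower in each, medians of 0.48, 0.22 and 0.51, and 4.65% of all genes called higher. Lung epithelial markers had 0 of 11 called, with 1 at an unadjusted p under 0.05, against 6.26% and 19.7% of all genes. Mesothelial markers had 1 of 9 called, against 6.26% of all genes. The marker called was Wt1, which was higher by 0.97 (limma adjusted p = 0.00172). However, 6 of the 9 had differences below 0 and the list median was -0.28. The calls of Sntb2, Icam2, Robo4, Erg, Flt1, Timp4, Rgcc and Wt1 were kept in every alternative run for them. Among hypoxia-induced genes 3 of 14 were called higher and 0 lower, against 4.65% and 1.61% of all genes, and the median was 0.01. They were Ldha (0.18, adjusted p = 0.00918), Ankrd37 (0.65, adjusted p = 0.0149) and Egln3 (0.49, adjusted p = 0.0477). Egln3 was lost in 12 of 19 alternatives, among them those without any 1 sham mouse, MCT mouse 640 or 644 and MCT+NI mouse 615, Ankrd37 in 4, among them those without MCT mouse 640 or 641, and Ldha in 3. Between MCT+NI and MCT mice 0 of all 18820 genes were called, and so 0 in any of the lists.

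The genes whose levels ran most like these over the 9 mice were found among 9409 genes at or above the median level (9410 for Car2), by Pearson correlation given as a description, since the mice share their groups. For Car4 they were Dock9, an activator of Cdc42 (r = 0.982), Ahr, the aryl hydrocarbon receptor (0.98), and Flt1 (0.979). For Aqp1 they were Epm2aip1 (0.97), Bmp6, a bone morphogenetic protein (0.969), and Dock9 (0.967). For Car3 they were Tshz1 (0.915), Fbln5, a protein of elastic fibres (0.888), and Scd1, a fatty acid desaturase (0.871). For Car2 they were Zfp961 (0.93), Dlc1 (0.928) and Kdm3a (0.916), and for Aqp4 Tmem82 (0.965), Tesc (0.961) and Tubgcp2 (0.95). Car3 and Car2 are adjacent coding genes on chromosome 3 in GRCm38.p6, and the mice with the highest Car3 (615, 644, 620 and 625) had Car2 values of 5.13, 5.38, 5.38 and 5.66.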

How the data were processed

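Right ventricular RNA of 9 mice was measured on 1 array each. The authors processed the scans by RMA, which corrects the background, gives the arrays like distributions and summarises probe sets, and deposited log2 intensity values. The rows of the deposited table are 35556 probe sets numbered as by the manufacturer, although the methods speak of sets remapped to Entrez genes. The methods name trizol for the isolation of RNA and the labels the RNeasy Micro kit. The genome build and the version of RMA are not given in the sources used here.

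Rows were named through the platform annotation. Of the rows 21218 had 1 gene, 1881 several and 12457 none, and only the first were used, giving 18820 genes. Where several probe sets remained (1386 genes) the brightest stood for the gene. Array medians were 4.77 to 4.79, and the values were used without further normalization.

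Group means were estimated jointly from the 9 arrays with limma 3.58.1 (R 4.3.3), with eBayes given an intensity trend, and two-sided p-values were adjusted by Benjamini-Hochberg over all genes. Precision is limited by the number of arrays. The procedure was tested on simulated data with independent noise. Differences in tissue between mice that many genes share, such as the atrial ones, were not simulated. Each mouse is a separate animal.

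The text names the chosen genes, the rest of both families, up to 4 genes of each list with the smallest p and the 3 genes most alike in level, and says where others were picked after their values were seen. The genes and the 18 lists (219 of 240 symbols measured) were chosen with earlier results of these data known. Slc4a1 and Rhag, Upk3b, and Car9 each stand in 2 lists. The alternatives were other fits, probe set rules, filters and normalizations, the atrial markers as a covariate, and leaving out mice. Promoter sequences come from a set of windows before RefSeq starts (GRCm38.p6), and 3 of the 6 genes had an entry in that set.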

Additional observations from a re-analysis of the deposited data

How the results depend on the processing

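Each comparison was refitted under 19 alternatives (18 for Car2, Car5b and Timp4, which the filter on dim genes removes). Car4 kept its direction against sham in all of them, from -2.17 to -1.78 in MCT mice and from -2.33 to -1.92 in MCT+NI mice, and so did Aqp1, from -1.82 to -1.26 and from -1.82 to -1.23. Both genes had been chosen for this fall in the same arrays, so their kept direction is a description and not a test. Of all genes 1179 passed an adjusted p of 0.05 in MCT against sham, and likewise 1179 in MCT+NI against sham. With the atrial covariate 519 passed in the first comparison and 412 in the second. Leaving out 1 mouse gave 676 (without MCT 640) to 1196 in MCT against sham and 625 (without MCT+NI 619) to 1183 in MCT+NI against sham, where 682 passed without MCT+NI 615. In MCT against sham 767 passed without MCT 641. Omitting both MCT 644 and MCT+NI 615 gave 720 in MCT+NI against sham. In MCT+NI against MCT 0 passed in limma in every alternative, with 545 at an unadjusted p under 0.05 in the fit reported.

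Signs turned only for differences that never passed the adjusted threshold. With the atrial covariate Car3 differed by 0.64 in MCT against sham and by 0.93 in MCT+NI against sham, and Aqp4 by -0.30 in MCT+NI against sham (-0.38 in MCT against sham, where it kept its sign). Aqp4 in that comparison was -0.035 with arrays centred on their medians and -0.018 after quantile normalization. Omitting MCT 644 and MCT+NI 615 gave Aqp4 0.037 in MCT against sham, and Car2 0.033 and Car3 -0.040 in MCT+NI against MCT. Leaving out 1 mouse gave, in MCT against sham, Car3 -1.69 to -0.21, Car2 -0.16 to 0.047 and Aqp4 -0.25 to 0.037. In MCT+NI against MCT it gave Car4 -0.32 to -0.028, Car2 -0.11 to 0.022, Car3 -0.73 to 0.86, Aqp1 -0.24 to 0.17 and Aqp4 -0.067 to 0.27, and in MCT+NI against sham Aqp4 -0.15 to 0.17, Car2 -0.23 to -0.014 and Car3 -1.57 to -0.032. The cause was not tested. No paired analysis was possible because the mouse numbers of the groups are not shared. With 3 arrays a group, intervals as wide as that of Car3 cannot resolve a change.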
